A study of Mus musculus with 8 samples.

Results

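Aldoa, which encodes the aldolase A isoform of the glycolytic enzyme fructose bisphosphate aldolase, lies in the chromosome 7 segment of which 16p11.2+/- mice keep a single copy. Its mRNA was compared in striatum with that of its brain paralogue Aldoc and of 8 further glycolytic enzyme genes, Pfkm, Pfkp, Tpi1, Pgk1, Pgam1, Eno2, Pkm and Ldha. The rows were taken by a list of symbols. The 10 symbols matched 11 of the 55032 genes in the table, because Aldoa is listed under 2 gene identifiers. The study set 4 WT against 4 heterozygous 16p11.2+/- mice, all female, on a B6/C57 background and at postnatal day 60, to profile gene expression in a mouse model of autism spectrum disorder. The 16p11.2+/- mice come from 1 line carrying a germline deletion, so the lost copy is missing from neurons and glia alike, and the labels name no drug or Cre. Total RNA of each striatum made its own library, and the libraries held between 15125051 and 16387993 counts in WT and between 15240680 and 16523429 in 16p11.2+/- mice. Mice are named by group and animal number, with the prefix DF for 16p11.2+/-, and 4 values in a row follow the order WT-1015, WT-1041, WT-1061 and WT-1063, or DF-1018, DF-1037, DF-1059 and DF-1062.

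Aldolase splits fructose 1,6-bisphosphate into dihydroxyacetone phosphate and glyceraldehyde 3-phosphate, and so marks the point where the hexose phase of glycolysis ends. Among its forms, A is found in most tissues and is abundant in muscle and brain, and C is found in brain and enriched in astrocytes and in some neurons such as Purkinje cells. Phosphofructokinase acts just before aldolase, and triosephosphate isomerase, phosphoglycerate kinase, phosphoglycerate mutase, enolase, pyruvate kinase and lactate dehydrogenase act after it.

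The coding sequences of Aldoa and Aldoc were compared first, since reads of one gene are most easily counted for the other where the letters match over the length of a read. In GENCODE M21 (GRCm38) Aldoa (ENSMUSG00000030695) lies at chr7:126795234-126800751 on the minus strand and Aldoc (ENSMUSG00000017390) at chr11:78322968-78327781 on the plus strand. The intronless copies made from Aldoa mRNA, Aldoart1 at chr4:72850583-72852634 and Aldoart2 at chr12:55565239-55566896, are also annotated. The first 120 coding bases of each are shown 5′ to 3′, with capitals at the bases that differ from Aldoa. They begin in exon 2 and end in exon 3 of Aldoa (chr7:126797541-126797755, minus strand) and of Aldoc (chr11:78324402-78324611, plus strand), and lie in the single exon of Aldoart1 (chr4:72852285-72852404, minus strand) and of Aldoart2 (chr12:55565292-55565411, plus strand).
Aldoa: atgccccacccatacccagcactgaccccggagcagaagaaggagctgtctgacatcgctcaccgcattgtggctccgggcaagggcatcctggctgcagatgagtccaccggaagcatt
Aldoc: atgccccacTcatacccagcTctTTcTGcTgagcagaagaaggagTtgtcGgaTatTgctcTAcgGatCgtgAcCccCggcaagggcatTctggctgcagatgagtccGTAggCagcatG
Aldoart1: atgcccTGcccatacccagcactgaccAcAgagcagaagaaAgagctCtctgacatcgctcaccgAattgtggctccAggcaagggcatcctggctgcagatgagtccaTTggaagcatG
Aldoart2: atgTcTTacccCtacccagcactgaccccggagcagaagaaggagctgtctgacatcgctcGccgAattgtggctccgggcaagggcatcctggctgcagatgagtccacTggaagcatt
In this stretch Aldoc differs from Aldoa at 24 of 120 bases, Aldoart1 at 11 and Aldoart2 at 7. Over the whole coding sequence 75.9% of 1088 aligned bases of Aldoa and Aldoc are identical, and the longest run shared by both is 26 bases. Aldoart1 shares 94.2% of 1092 bases with Aldoa and Aldoart2 91.7%, with longest shared runs of 86 and 49 bases. The copies were almost without reads: Aldoart1 had 2 counts in 1 mouse and none in the others, and Aldoart2 had at most 4 counts in any mouse.

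Aldoa mRNA was lower in each 16p11.2+/- mouse than in any WT mouse, by close to the share of gene copies lost, and its spread was small in both groups. Levels are given in FPKM, which is fragments scaled to gene length and library depth. Different genes can be set side by side in FPKM only as far as the length used fits their transcripts. The level of Aldoa was 308, 299.8, 289 and 309 in the WT mice. It was 148, 159, 145 and 160.4 in the 16p11.2+/- mice. The groups did not overlap, and the lowest WT mouse was far above the highest 16p11.2+/- mouse. The means were 301 ± 9.48 FPKM in WT versus 153 ± 7.63 FPKM (SD, n = 4 each) in 16p11.2+/- mice, so that the mean was 50.8% of WT. The underlying counts were 13372 to 14561 in WT and 6587 to 7716 in 16p11.2+/- mice. On the log2 scale the fold change of Aldoa was -0.997 with a standard error of 0.08 and a 95% interval from -1.18 to -0.82 (adjusted p = 0.00169, edgeR quasi-likelihood test with Benjamini-Hochberg adjustment over 18294 genes), an interval that holds the value of -1 that a halving gives.

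All 11 rows had enough counts to be tested. Aldoa was the 1 row past the adjusted threshold of 0.05 among them, as a lower gene, whereas 0.0929% of all genes tested were called lower and 0.109% were called in either direction. None of the 11 was called higher, against 0.0164% of all genes. By unadjusted p under 0.05, 2 of the 11 rows passed, both of them Aldoa entries, against 4.32% of all genes. Aldoa was also the 1 row whose FPKM values did not overlap between groups in the lower direction (1.62% of all genes), and 0 of 11 did so in the higher direction (1.21% of all genes). Of the 11 log2 fold changes 4 were negative and 7 positive, with a median of 0.11 beside -0.01 over all genes tested.

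**Figure D1:**
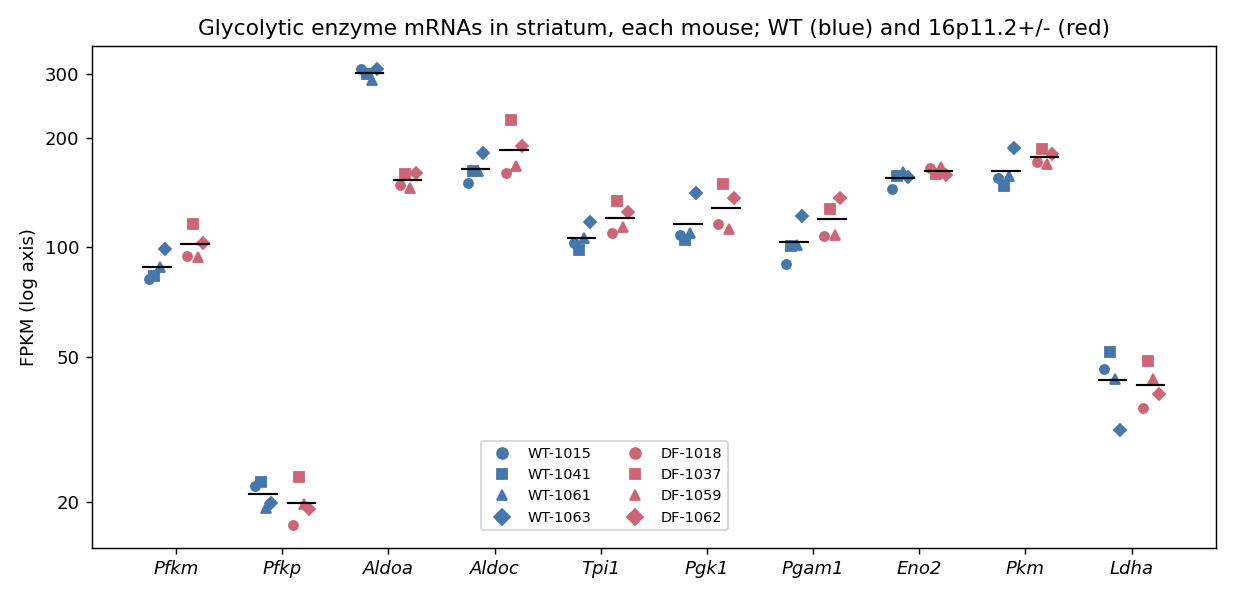
FPKM (log axis) of the 10 glycolytic enzyme genes in each mouse, in the order of the pathway, with WT mice in blue, 16p11.2+/- mice in red and black bars at the group means (n = 4 each). Aldoa separates the groups, with WT at 289 to 309 and 16p11.2+/- at 145 to 160.4, whereas the points of the other 9 genes overlap.

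The second Aldoa entry (ENSMUSG00000114515, chr7:126800790-126809108, minus strand) has its 3′ end just upstream of the main one and its start 8.36 kb from that of the main one, and was close to the floor of the assay. Its counts were 18, 18, 17 and 8 in the WT mice and 8, 11, 8 and 5 in the 16p11.2+/- mice. These counts overlap between the groups, and they add up to 93 over the 8 mice beside 83555 for the main entry. The log2 fold change was -0.95 with a standard error of 0.38, and it did not pass the test (adjusted p = 0.859, edgeR).

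Fam57b (chr7:126797668-126830219, plus strand), a gene related to ceramide metabolism, overlaps Aldoa on the opposite strand. The exons shared by both make up 0.859% of the exon bases of Aldoa. Fam57b had 2968 counts in the 8 mice together, a small number beside those of Aldoa, and the strand setting of the counting is not given in the sources used here. Its log2 fold change was -0.69 with a standard error of 0.20 (adjusted p = 0.859, edgeR), with 433, 464, 396 and 523 counts in the WT mice and 200, 390, 229 and 333 counts in the 16p11.2+/- mice. Within 600 kb of the Aldoa start 58 genes were tested and 17 were called, all of them lower, with Aldoa among them. Ppp4c encodes the catalytic subunit of protein phosphatase 4 and is the nearest tested gene downstream of Aldoa that does not overlap it. The log2 fold change of Ppp4c was -1.05 with a standard error of 0.08 (adjusted p = 0.00169, edgeR).

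The size of the Aldoa change lay among those of the called genes that share its lost copy. Of 32 other genes listed for the deleted segment 28 were tested and 15 were called lower, and the log2 fold changes of those 15 ran between -1.23 and -0.93 around a median of -0.99. Of the 28 tested genes 19 had an estimate inside the 95% interval of Aldoa, among them 14 of the 15 called. Over the 28 the median was -0.94, and 26 values were negative. The positive values of 0.20 and 0.31 belonged to Zfp553 and Zfp771. Their starts are 432 kb and 444 kb from that of Aldoa, beyond the last called gene. By position Zfp553 and Zfp771 may lie outside the deletion and keep both copies, but they stayed in the list and count among the 28. The 5 genes whose pattern over the 8 mice was most like that of Aldoa were Sez6l2, Cd2bp2, Ppp4c, Tbc1d10b and Taok2, with mean absolute distances of 0.05, 0.06, 0.06, 0.07 and 0.08 on the log2 CPM scale after centring each gene on its WT mean. All of them lie in the segment.

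**Figure D2:**
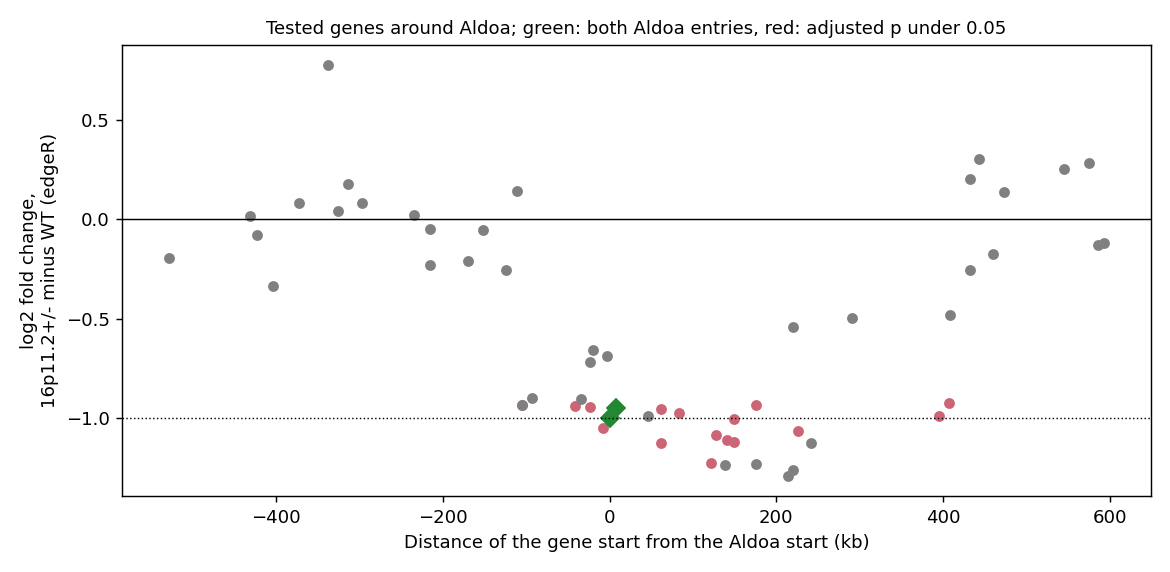
Log2 fold change (16p11.2+/- minus WT) of each tested gene within 600 kb of Aldoa against the distance of its start from that of Aldoa, with red points for genes past the adjusted threshold and green diamonds for both Aldoa entries, of which the main one at 0 kb passed. The called genes lie near the dotted line at -1, and genes on both flanks lie around 0.

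Aldoc, the other aldolase of brain, did not pass the test. Its level was 151, 162, 162 and 181 FPKM in the WT mice. In the 16p11.2+/- mice it was 159.6, 223, 167 and 189.7 FPKM. The groups overlap, with the highest value in mouse DF-1037 and the lowest in WT-1015. The means were 164 ± 12.7 FPKM in WT versus 185 ± 28.7 FPKM (SD, n = 4 each) in 16p11.2+/- mice. The log2 fold change was 0.15 with a standard error of 0.12 and a 95% interval from -0.12 to 0.42 (adjusted p = 0.859, edgeR). Without DF-1037 the estimate was 0.047, and it was 0.051 with the thalamus marker score described further on as a covariate and 0.045 with the medium spiny neuron score. With the astrocyte marker score it was 0.217, and over all 22 alternative fits the Aldoc estimate ran from 0.045 to 0.217.

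Aldoa and Aldoc together came to 459, 462, 451 and 491 FPKM in the WT mice. The sums were 308, 383, 312 and 350.1 FPKM in the 16p11.2+/- mice, and no 16p11.2+/- mouse reached the lowest WT sum. The mean sum was 465 ± 17.4 FPKM in WT versus 338 ± 35.1 FPKM (SD, n = 4 each) in 16p11.2+/- mice, or 72.7% of WT. The difference in mean Aldoa was -148 FPKM and that in mean Aldoc was 20.9 FPKM, a size of 14.1% of the Aldoa difference. Without DF-1037 the Aldoc difference was 8.08 FPKM, or 5.38% of the Aldoa difference, and with any other mouse left out it was between 16.4 and 29.3 FPKM. At the upper end of its 95% interval Aldoc would be 55.5 FPKM above its WT mean, or 37.5% of the Aldoa difference, whereas a rise as large as the Aldoa difference would take a 1.90-fold change. That fold, 0.93 on the log2 scale, lies outside the interval for Aldoc.

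The makeup of aldolase mRNA differed between the groups as well. Aldoa made up 67.2%, 64.9%, 64.0% and 63.1% of the sum in the WT mice. In the 16p11.2+/- mice it made up 48.2%, 41.6%, 46.5% and 45.8%. The means of 64.8% ± 1.76 (SD, n = 4) and 45.5% ± 2.80 (SD, n = 4) did not overlap in their single values, so that Aldoa was the larger part in each WT mouse and the smaller part in each 16p11.2+/- mouse. Mean Aldoc was 54.4% of mean Aldoa in WT and 121% in 16p11.2+/- mice.

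**Figure D3:**
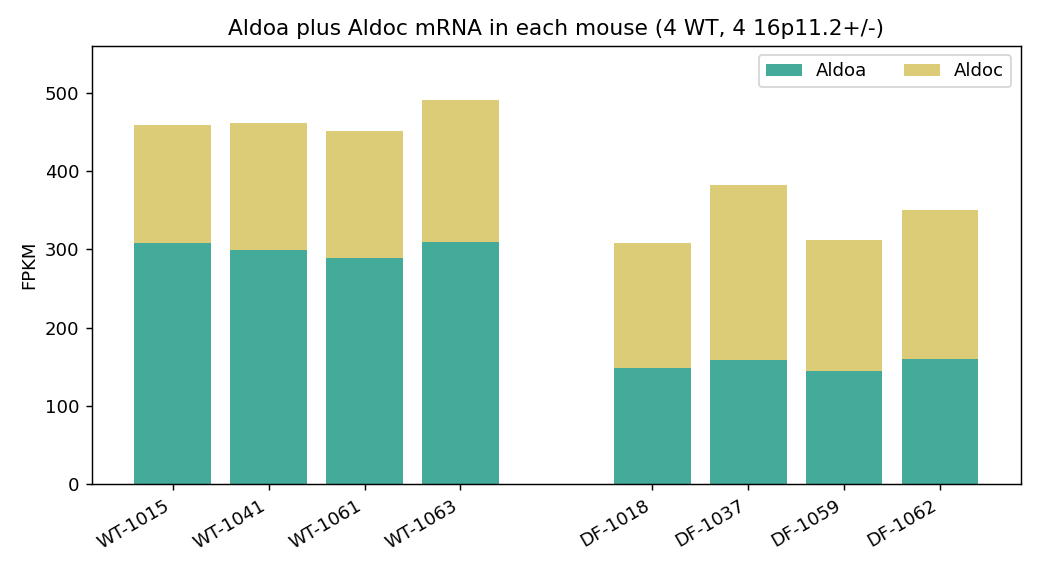
Stacked bars of Aldoa FPKM (green) and Aldoc FPKM (yellow) in each mouse, WT on the left and 16p11.2+/- on the right. The sums are 451 to 491 FPKM in WT and 308 to 383 FPKM in 16p11.2+/- mice, and the green part is 289 to 309 and 145 to 160.4 FPKM.

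Phosphofructokinase commits fructose 6-phosphate to glycolysis and makes the substrate of aldolase. Its muscle-type subunit gene Pfkm (chr15:98092589-98132451, plus strand) was at 81.7, 83.5, 88.3 and 99.05 FPKM in the WT mice. It was at 94.6, 116, 94.0 and 103 FPKM in the 16p11.2+/- mice. The groups overlap only through WT-1063, the highest WT mouse. The log2 fold change of Pfkm was 0.19 with a standard error of 0.10 and a 95% interval from -0.04 to 0.41 (adjusted p = 0.859, edgeR). Of its exon bases 10.8% are shared with other annotated genes. The platelet-type gene Pfkp (chr13:6579768-6648777, minus strand) was at 21.0 ± 1.70 FPKM in WT versus 19.9 ± 2.59 FPKM (SD, n = 4 each) in 16p11.2+/- mice, with a log2 fold change of -0.10 (95% interval -0.35 to 0.15, adjusted p = 0.874, edgeR). Its range in 16p11.2+/- mice, 17.3 to 23.4 FPKM, took in the whole WT range of 19.2 to 22.7 FPKM. The liver-type gene Pfkl, the remaining subunit, was 0.09 higher on the log2 scale (standard error 0.11), short of the threshold. Pfkm made up 70.5% ± 2.87 (SD, n = 4) of the summed FPKM of the 3 subunit genes in WT versus 73.4% ± 1.26 (SD, n = 4 each) in 16p11.2+/- mice, and Pfkp 16.8% ± 1.92 (SD, n = 4) and 14.3% ± 0.720 (SD, n = 4), with overlapping single values. These shares depend on the lengths used for scaling, 13401 bases for Pfkp and 3340 for Pfkm. The unscaled counts over all mice were closer, at 34518 for Pfkp and 40116 for Pfkm.

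Triosephosphate isomerase interconverts both products of aldolase. Its gene Tpi1 (chr6:124810586-124814296, minus strand) was at 103, 98.0, 106 and 118 FPKM in the WT mice. It was at 109.7, 134, 114 and 125 FPKM in the 16p11.2+/- mice. The 16p11.2+/- values lie above those of 3 WT mice and on either side of WT-1063. For Tpi1 the log2 fold change was 0.16 with a standard error of 0.09 and a 95% interval from -0.05 to 0.37 (adjusted p = 0.859, edgeR).

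Phosphoglycerate kinase makes the first ATP of the pathway. Its X-linked gene Pgk1 (chrX:106187100-106203699, plus strand) was at 108, 105, 109 and 141 FPKM in the WT mice. It was at 116, 149, 112 and 136 FPKM in the 16p11.2+/- mice. WT-1063 stood well above the other WT mice and above 3 of the 16p11.2+/- mice. For Pgk1 the log2 fold change was 0.12 with a standard error of 0.13 and a 95% interval from -0.16 to 0.41 (adjusted p = 0.868, edgeR), and the estimate was -0.023 with a thalamus marker score as a covariate. The testis form Pgk2 was listed at 0 counts in all mice. Phosphoglycerate mutase, which moves the phosphate group within phosphoglycerate, is encoded in brain by Pgam1 (chr19:41911923-41918660, plus strand). Pgam1 was at 90.1, 101, 101 and 122 FPKM in the WT mice. In the 16p11.2+/- mice it was at 108, 128, 108 and 136 FPKM, again above 3 WT mice and on either side of WT-1063. Its log2 fold change of 0.19 was the highest of the 11, with a standard error of 0.11 and a 95% interval from -0.05 to 0.43 (adjusted p = 0.859, edgeR). The FPKM of Pgam1 rests on a length of 1831 bases, where the annotation used here gives 1982. The muscle form Pgam2, at 4.74 FPKM in WT, gave a log2 value of -0.16 for the difference (standard error 0.29).

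Enolase makes phosphoenolpyruvate, and Eno2 (chr6:124760053-124769673, minus strand) encodes its neuronal subunit. Eno2 was at 145, 157, 161 and 156 FPKM in the WT mice. It was at 165, 159, 167 and 158 FPKM in the 16p11.2+/- mice, and the groups overlap. Of the 9 intact genes Eno2 had the estimate nearest to 0, with a log2 fold change of 0.05, a standard error of 0.08 and a 95% interval from -0.14 to 0.24 (adjusted p = 0.912, edgeR). It made up 66.4% ± 2.85 (SD, n = 4) of the summed FPKM of Eno1, Eno2 and Eno3 in WT versus 66.7% ± 3.24 (SD, n = 4 each) in 16p11.2+/- mice. The broadly expressed Eno1 gave a log2 difference of 0.02 (standard error 0.12), the muscle form Eno3 0.18 (standard error 0.21) and the sperm form Eno4 -0.19 (standard error 0.27).

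Pyruvate kinase makes the last ATP of the pathway, and its muscle and brain gene is Pkm (chr9:59656368-59679375, plus strand). Pkm was at 155, 147, 157 and 188 FPKM in the WT mice. It was at 172, 186, 169 and 181 FPKM in the 16p11.2+/- mice. The groups overlap only through WT-1063, which held the highest value of the 8. For Pkm the log2 fold change was 0.11 with a standard error of 0.10 and a 95% interval from -0.12 to 0.34 (adjusted p = 0.861, edgeR). Of the exon bases of Pkm 15.3% are shared with another annotated gene, so that reads there cannot be given to 1 gene. The liver and red cell gene Pklr had too few counts to be tested.

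Lactate dehydrogenase interconverts pyruvate and lactate. Ldha (chr7:46841475-46855627, plus strand), the gene of the muscle-type subunit, lies on chromosome 7 far outside the deleted segment. It was at 46.4, 51.5, 43.5 and 31.4 FPKM in the WT mice. It was at 36.2, 48.9, 43.4 and 39.5 FPKM in the 16p11.2+/- mice, all within the WT range. The log2 fold change was -0.06 with a standard error of 0.16 and a 95% interval from -0.42 to 0.30 (adjusted p = 0.937, edgeR), the widest interval of the 10 main rows, and the estimate turned to 0.027 without WT-1041. The heart-type gene Ldhb was at 220.1 ± 39.3 FPKM in WT versus 221 ± 30.1 FPKM (SD, n = 4 each) in 16p11.2+/- mice, so that Ldha made up 16.8% ± 4.75 (SD, n = 4) and 16.0% ± 1.57 (SD, n = 4) of the sum. The testis form Ldhc was not tested for lack of counts.

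**Figure D4:**
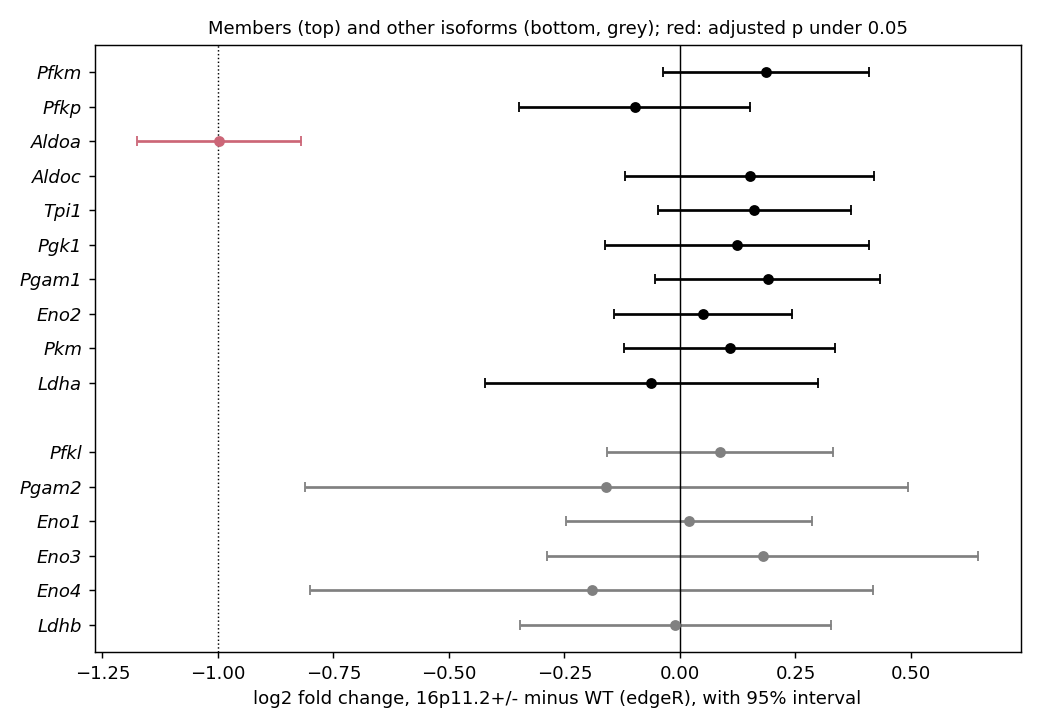
Log2 fold change (16p11.2+/- minus WT, edgeR) with its 95% interval for the 10 main rows in the order of the pathway, above other tested isoforms of the steps in grey. The interval of Aldoa, in red, runs from -1.18 to -0.82 across the dotted line at -1, and each other interval includes 0.

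The 9 genes with both copies intact therefore gave estimates between -0.10 and 0.19 on the log2 scale, and each 95% interval included 0. The highest upper bound among them was a 1.35-fold rise, for Pgam1, and the lowest lower bound was 0.746-fold, for Ldha. Aldoa ranked 1 among the 10 genes by FPKM in each WT mouse and between 3 and 4 in 16p11.2+/- mice. Pkm took ranks 2 to 4 in WT and 1 to 2 in 16p11.2+/- mice, and Aldoc ranks 2 to 3 and 1 to 3. Pfkm, Ldha and Pfkp held ranks 8, 9 and 10 in every mouse. The last place of Pfkp depends on the length used to scale it, since its counts over all mice, 34518, were above the 17782 of Ldha.

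The wider pathway was read from 5 further lists with 53 genes, of which 47 were tested. None of the 47 was called by edgeR or by any of the 22 alternative fits, and 1 had an unadjusted p under 0.05. This was Dlat, the acetyltransferase subunit of the pyruvate dehydrogenase complex, with 22.3 ± 1.32 FPKM in WT versus 25.7 ± 1.99 FPKM (SD, n = 4 each) in 16p11.2+/- mice and a log2 fold change of 0.19 with a standard error of 0.08 (adjusted p = 0.859, edgeR). Of the 47 values 19 were negative and 28 positive, with a median of 0.02. The 16 other glycolytic enzyme genes tested had a median of 0.02, the 9 genes of fructose 2,6-bisphosphate enzymes, Tigar, pyruvate dehydrogenase kinases and Hif1a a median of 0.00, and the 8 glucose, lactate and pyruvate carriers a median of -0.01. The 8 tested genes of the branches at the triose phosphates had a median of 0.00. The 6 genes of pyruvate dehydrogenase and pyruvate carboxylase were all positive, with values from 0.07 to 0.19 and a median of 0.15. Gapdh, the step after triosephosphate isomerase, could not be read as a level, since it had 203 to 352 counts a mouse and 78 other annotated genes carry stretches at least 95% identical to it over 200 bases or more, with counts that together came to 816% of its own. The search found no such copy of Aldoa, Aldoc, Pfkm, Pfkp, Eno2 or Pkm. For Tpi1, Pgk1, Pgam1 and Ldha the counts of the copies came to between 0.329% and 2.00% of the gene's own. Each alignment was judged by its identity as a whole. Aldoart1, 94.2% identical to Aldoa over the coding sequence, could thus be missed even where a part of it passes.

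The mice differed in markers of a neighbouring brain region, and some intact genes followed the same order of mice. A score of 7 thalamus markers (mean log2 CPM, among them Tcf7l2 and Prkcd) was between 4.24 and 4.53 in WT-1015, WT-1041, WT-1061 and DF-1059. No marker of the list had fewer than 64 counts in any mouse. All 7 had positive fold changes, with a median of 0.76, and none was called. The score was between 6.65 and 7.50 in WT-1063 and in DF-1018, DF-1037 and DF-1062. For Pfkm, Pgk1 and Pkm each of the 4 mice with the higher score was above each of the 4 with the lower score. These are 3 of the 11 rows, beside 4.99% of all genes tested, and 0 of 11 showed the opposite order, beside 3.07% of all genes. The higher set held 1 WT and 3 16p11.2+/- mice and the lower set the reverse, so score and genotype partly coincide. In the lower set DF-1059 was above the 3 WT mice for each of these genes. Its FPKM was 94.0 against 81.7 to 88.3 for Pfkm, 112 against 105 to 109 for Pgk1 and 169 against 147 to 157 for Pkm. In the higher set WT-1063 lay within the 16p11.2+/- range for Pfkm and Pgk1 and above it for Pkm. The part of these markers in the differences between WT and 16p11.2+/- mice was not tested beyond the fits that follow. With the score as a covariate the log2 fold change of Aldoa was -1.03 and past the threshold, and those of Pgk1 and Ldha changed sign, to -0.023 and 0.097. In the same fit Aldoc came to 0.051, Pfkm to 0.097, Tpi1 to 0.086, Pgam1 to 0.079 and Pkm to 0.027, each nearer to 0 than without the score. Pfkp, at -0.091, was little changed, and Eno2, at 0.064, was slightly further from 0. Among the mice with the lower score Aldoa was at 289 to 308 FPKM in 3 WT mice and 145 FPKM in DF-1059, and among those with the higher score it was at 309 FPKM in WT-1063 and 148 to 160.4 FPKM in 3 16p11.2+/- mice. The fits to these sets of 4 mice gave Aldoa log2 fold changes of -1.06 (adjusted p = 0.0991, edgeR) and -0.97 (adjusted p = 0.679, edgeR), so that the call was lost with a single mouse on 1 side, and the lone mouse was taken to vary like the others.

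**Figure D5:**
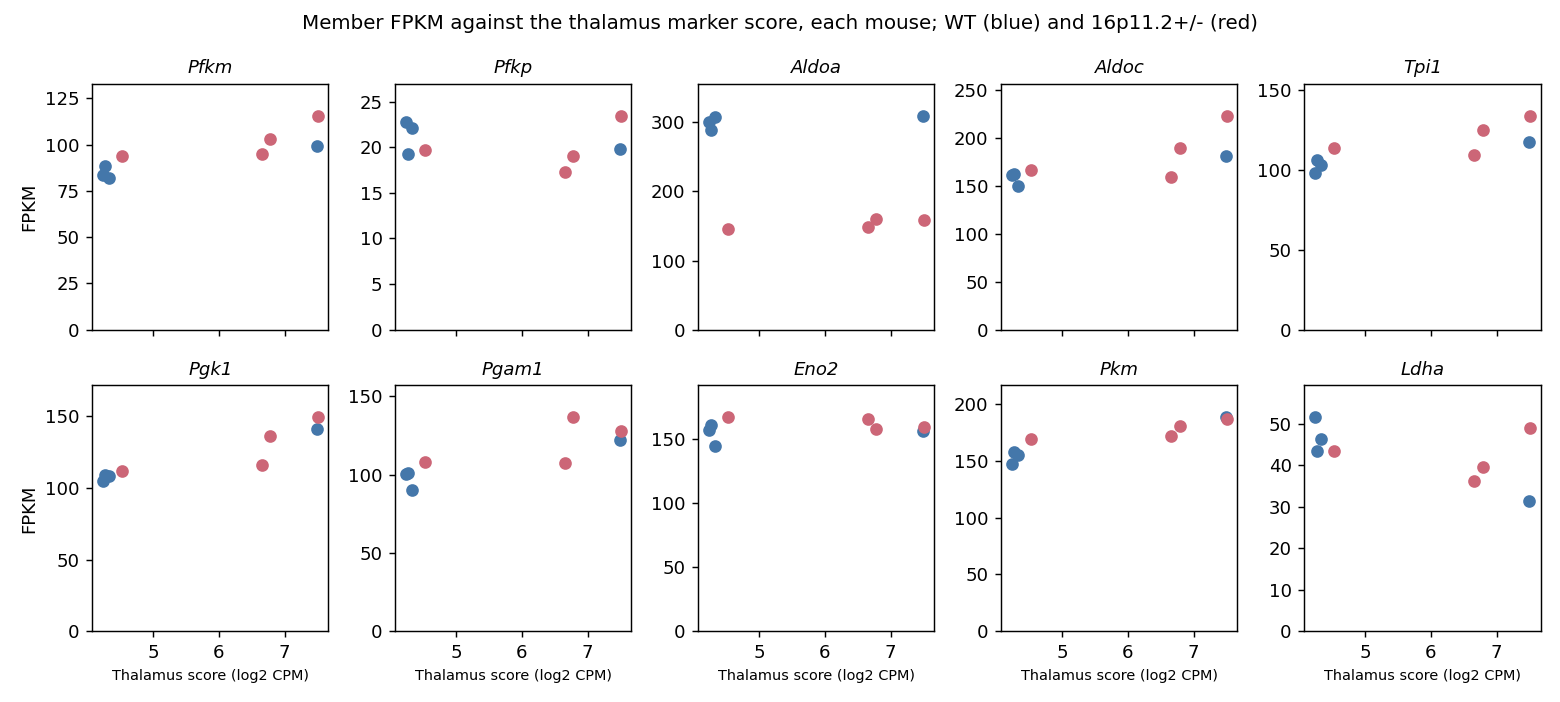
FPKM of each of the 10 genes against the thalamus marker score (mean log2 CPM of 7 genes) in each mouse, with WT in blue and 16p11.2+/- in red. Pfkm, Pgk1 and Pkm are higher in the 4 mice with a score of 6.65 to 7.50, while Aldoa separates by genotype at both ends of the score.

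The other marker lists did not separate the groups. The score of 8 medium spiny neuron markers, which define the main neurons of striatum, was 7.84 to 8.60 in WT and 6.08 to 8.53 in 16p11.2+/- mice, with no marker under 473 counts. DF-1037 and DF-1062 had the lowest scores, 6.50 and 6.08, and 8 of 8 fold changes were negative with a median of -0.52. The score of 8 astrocyte markers, cells in which Aldoc is enriched, was 7.42 to 7.55 in WT and 7.26 to 7.54 in 16p11.2+/- mice. The 8 oligodendrocyte markers scored 7.53 to 7.96 in WT and 7.01 to 7.61 in 16p11.2+/- mice, with 8 of 8 fold changes negative, 5 of them at an unadjusted p under 0.05 (edgeR) and none called. Of the 8 markers 3 were lower without overlap between the groups, beside 1.62% of all genes. The part of these cells in the values above was not tested. The 6 cortical markers scored 1.06 to 5.31 in WT and 0.44 to 5.50 in 16p11.2+/- mice, with some at 0 counts in some mice. Of their fold changes 6 of 6 were negative (median -0.55). The ranges of the microglia, endothelial, erythrocyte and choroid plexus lists also overlapped. The choroid plexus score, from 3 tested genes, was highest in WT-1063, at 9.44. The next highest was 6.75 in WT-1015, and 16p11.2+/- mice had 3.08 to 5.14. Of the 3 choroid fold changes all were negative, 2 of them at an unadjusted p under 0.05 (edgeR) and none called. The part of choroid plexus RNA in the values of WT-1063 was not tested. In bulk tissue fewer cells of a type and less RNA per cell cannot be told apart. For oligodendrocyte lineage cells, the paper counted OLIG2+ and MYRF+ cells in striatum at the same age and found no difference between the groups.

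The region before the start of each gene was searched for ACGTG, the core of the site bound by hypoxia-inducible factors, which are known to act on glycolytic genes. The search covered the 250 bases upstream of each RefSeq start (GRCm38.p6) on both strands. At least 1 match was present in 8 of 18 upstream windows of the 10 genes (44.4%), beside 16.6% of 32851 windows of all genes. Since windows of 1 gene can overlap, the same was counted by gene, and 6 of the 10 genes (60.0%) had a match, beside 18.5% of all genes. The 10 genes had 18 windows, whereas all 27025 genes had 32851. The 10 thus had more windows per gene in which a match could fall, which raises their share by gene. Aldoa and Pgk1 are shown because both have matches, in capitals, while their copy number differs between the groups only for Aldoa. The windows are chr7:126799255-126799504 on the minus strand and chrX:106186850-106187099 on the plus strand, written 5′ to 3′.
Aldoa: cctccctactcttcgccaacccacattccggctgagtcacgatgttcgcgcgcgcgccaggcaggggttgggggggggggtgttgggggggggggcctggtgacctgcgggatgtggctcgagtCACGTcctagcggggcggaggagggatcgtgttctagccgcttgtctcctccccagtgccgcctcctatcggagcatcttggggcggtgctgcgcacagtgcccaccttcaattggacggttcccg
Pgk1: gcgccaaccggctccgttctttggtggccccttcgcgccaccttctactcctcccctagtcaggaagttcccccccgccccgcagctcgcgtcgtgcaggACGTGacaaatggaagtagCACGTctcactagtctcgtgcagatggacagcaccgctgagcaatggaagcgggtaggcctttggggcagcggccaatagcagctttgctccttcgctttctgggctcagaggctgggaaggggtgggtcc
The 6 genes with a match were Aldoa, Ldha, Pfkm, Pgam1, Pgk1 and Pkm. Hif1a itself was at 16.2 ± 1.83 FPKM in WT versus 16.6 ± 1.59 FPKM (SD, n = 4 each) in 16p11.2+/- mice and did not pass the test (log2 fold change 0.01, standard error 0.09). A match is a run of letters and not a measured site.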

How the data were processed

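Libraries made from striatum, 1 per mouse, came from 4 WT and 4 16p11.2+/- animals. By the account of the paper, the reads were trimmed and filtered, aligned with Hisat2 and counted per gene with Htseq-count. The authors deposited the raw counts. The authors also deposited FPKM, which scales each count to the length of the gene and the depth of the library; for 97.3% of the genes annotated in GENCODE M21 with a value above 0, the implied length was within 1 base of the summed exon length there. The deposited summary of FPKM in bins and the table of the authors' own comparison (group signals, fold changes and p-values) were not used. The deposited sample records list Bowtie 0.12.2 and the genome builds mm8 and mm9, whereas the paper describes Hisat2 and names no build. This conflict was not resolved. Annotation and strand setting are not given in the sources used here, and positions come from GENCODE M21 (GRCm38).

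All 8 mice entered 1 quasi-likelihood fit of the counts in edgeR 4.0.16 (R 4.3.3) with TMM factors. Genes were kept by filterByExpr, set to at least 10 counts and a total of at least 15, and p-values were adjusted by the Benjamini-Hochberg method over the 18294 genes tested of 55032. The size of the log2 fold change over the root of F gave its standard error. A marker score is the average log2 CPM of a list (prior count 2). Copies were sought with blastn 2.17.0. The code was tested on simulated counts.

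The members, lists and tests were chosen with earlier results of these data known. Named are the 10 genes, other isoforms of their steps, other pathway genes past the threshold or with an unadjusted p under 0.05, the nearest tested neighbours of Aldoa with Fam57b, and the 5 genes most like it. An isoform that this rule names is not reported here. Zfp553, Zfp771, Gapdh, Hif1a and the copies Aldoart1 and Aldoart2 were named after their values were seen. Other fits used DESeq2 1.42.0, limma 3.58.1 (voom on counts, or trend on log2 FPKM plus 1 or plus 0.1), RLE factors or plain library totals, other filters, marker scores as covariates and each mouse left out. The medium spiny neuron, cortical and astrocyte covariates and the sets of 4 mice by thalamus score were added after seeing the data. Libraries of a group differed by more than counting noise in every pair.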

Additional observations from a re-analysis of the deposited data

Results flagged for a closer look

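In 64 groups of 4 mice the gap between an extreme mouse and its nearest neighbour was set against the whole range, and 3 passed the 95% critical value of Dixon's test; chance passes about 1 in 20 groups. The share was 0.878 for Pgk1 FPKM in WT-1063, at 141 against 105 to 109 in the other WT mice. It was 0.973 for the thalamus marker score in the same mouse, at 7.49 against 4.24 to 4.33. It was 0.858 for Hk1, the main hexokinase gene of brain, in WT-1041, at 30.7 FPKM against 26.7 to 27.3.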

How the results depend on the processing

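No paired analysis was possible because no animal number occurs in both genotypes. Over 22 alternative fits the log2 fold change of Aldoa lay between -1.06 and -0.97, and it lost its call in the 2 fits to the sets of 4 mice by thalamus score, at -1.06 with the lower and -0.97 with the higher scores; each of those fits has 1 mouse in a group, and 0 members were called in either. In all other fits 1 member was called, and with a mouse left out (1 to 1 called) Aldoa lay between -1.02 and -0.97, with adjusted p from 0.00548 to 0.0194 (edgeR). The number of members with an unadjusted p under 0.05 was 4 without WT-1063 and 3 with the astrocyte score, and otherwise 1 to 2. The estimates that changed sign all belonged to uncalled genes. With the thalamus score as covariate Pgk1 came to -0.023 and Ldha to 0.097, and with the cortical score Ldha came to 0.076. Without WT-1041 Ldha came to 0.027 (range with a mouse left out -0.19 to 0.027). Without DF-1037 Aldoc came to 0.047 and Pgk1 to 0.044. In the set of 4 mice with higher thalamus scores Pfkp came to 0.022, Pgk1 to -0.064, Pkm to -0.050 and Ldha to 0.42. The cause was not tested.

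The number of all genes called was 20 in the fit reported, 31 with DESeq2, 13 with the thalamus score, 3 and 0 in the sets of 4 mice with lower and higher scores, and 8 to 18 with a mouse left out. The median log2 fold change of the deleted segment was -0.73 with limma-trend on log2(FPKM + 1), which understates changes of low genes, and -1.07 and -0.84 in those sets of mice. With a mouse left out the sum of Aldoa and Aldoc in 16p11.2+/- mice stayed between 69.5% and 74.8% of WT, and the difference in the Aldoa share between -20.1 and -18.0 percentage points. The shares of Eno2 and Ldha differed by -1.14 to 1.72 and by -3.04 to 0.65 percentage points, on both sides of 0. The scalings put the median log2 fold change of all genes between -0.01 and 0.01.

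With 4 mice a group, the highest upper 95% bound among the intact genes is 1.35-fold (Pgam1); this bounds the estimate and is not a limit of detection.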
